A study of Mus musculus with 67 samples.

Results

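Translation initiation and elongation factor genes were followed from the 2-cell embryo to the blastocyst, in embryos that had or had not been exposed to light. The genes were chosen by symbol alone: every row whose symbol starts with Eif1 to Eif6, Eef1 or Eef2 was taken, and the Eif2ak kinases, the sex-linked pair of eIF2 gamma genes and pseudogene symbols were left out. This gave 60 of the 26414 genes measured. By role they were 14 eIF3 subunit genes, 7 genes for eIF4E and its binding proteins, 6 for eEF1, 6 for eEF2 and enzymes that modify elongation factors, 5 for eIF1 and eIF1A, 5 for eIF2B, 5 for eIF4G, eIF4B and eIF4H, 4 for eIF2 and its relatives, 4 for eIF5 and its namesakes, 3 for eIF4A, and Eif6.

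All embryos came from C57BL/6 mice, with mothers of 6 weeks and fathers of 10 weeks of age. Embryos of the light group were put under light of 5000 lx for 6 h when they had 2 cells and were otherwise grown in the dark, as all control embryos were, so at every later stage the groups differ by an exposure that had ended. The study picked single cells from dissociated embryos and made SMART-seq2 libraries, a full-length cDNA method without molecular identifiers. The 67 libraries comprised 7 control and 6 light ones of 2-cell embryos, 6 and 8 of 4-cell embryos, 4 and 8 of 8-cell embryos, 13 and 6 of morulae, and 3 and 6 of blastocysts. The labels number an embryo for each library and name no mother, litter or day, so the p-values below measure the spread between these libraries and take them as independent. In RNA of this kind, fewer transcripts per cell and more RNA of other genes cannot be told apart.

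Reads per library ranged from 836011 to 8551674, with a median of 4632053, and 54.0% to 89.3% of them lay on CT010467.1 and Gm42418, a pair of genes at ribosomal RNA loci. The reads outside this pair, 318177 to 2867034 a library, are the base of every level below, which is given as CPM, the reads of a gene per 1000000 of these reads. The lowest depths were those of light 2-cell embryo 16 and light 4-cell embryo 14 (377385). Of marker lists for the cell types that such libraries could hold, those of cumulus cells and sperm were at or near 0, with summed levels of at most 8.85 and 8.65 CPM. Other lists differed between light and control libraries at some stages, and their ranges are given with those stages.

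Translation of most mRNAs starts when eIF4E binds the cap at the 5′ end of the mRNA and, with the scaffold eIF4G and the helicase eIF4A, draws the mRNA to the small ribosomal subunit. That subunit carries eIF1, eIF1A, eIF3 and the initiator tRNA on eIF2, which hydrolyses GTP with the help of eIF5 and is recharged by eIF2B. eIF5B then joins the large subunit, eIF6 keeps free large subunits from joining too early, and eEF1 and eEF2 bring in aminoacyl-tRNA and move the ribosome along. In the mouse embryo the first proteins are made from RNA stored in the oocyte, part of which sits in complexes that keep the cap covered, and the main wave of transcription from the embryo's own genome takes place around the 2-cell stage.

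The eIF3 genes are the largest role group, with 11 of 14 called higher over the control step from the 2-cell to the 4-cell stage and 8 of 14 in light against control 2-cell embryos, so stretches of their promoters are shown, read by symbol from the RefSeq promoter table (GRCm38.p6). Each stretch has 30 bases around a match to CCGGAAG, the core of an ETS-type motif, searched on both strands within 250 bases before and 50 after the start of the gene, and the capitals mark the match in the gene's own orientation. The motif was chosen after these sequences had been read. Shown is 1 match for each eIF3 gene that had any.
Eif3d: gctgtgacacaCTTCCGGttgtgtctcact
Eif3m: ctgtggctgacCCGGAAGcggttgtgcgta
Eif3g: cggccgcggcaCCGGAAGcctcttctactc
Eif3c: aaccttttcctCTTCCGGcgtcgtgcctgt
Eif3l: gctgggcgggaCTTCCGGtccggccaagca

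These stretches lie at chr15:77970876-77970905 (minus strand), chr2:105017064-105017093 (minus), chr9:20898616-20898645 (minus), chr7:126566382-126566411 (minus) and chr15:79075177-79075206 (plus). The first motif base lies at -70, -55, -44, -34 and -35 relative to the start. Promoters were found for 45 of the 60 factor genes, and 16 of these (35.6%) held the motif, against 9.93% of all 27025 genes in the promoter table and 18.6% of the genes that could be tested between the control 2-cell and 4-cell stages. Between those control stages 9 of 16 genes with it and 19 of 28 without it rose, with median log2 fold changes of 1.60 and 1.66. In light against control 2-cell embryos 7 of 16 with it and 10 of 28 without it were higher, with medians of 1.14 and 0.78. Whether genes with and without the motif differed was not tested, and a match is a description of these letters, not a bound site. The eIF3 genes shown are among the 16, and the motif was chosen after their promoters had been read. The shares above are therefore a description and no test.

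In control embryos the 60 genes together took a small share of the reads at the 2-cell stage and a larger one from the 4-cell stage on. The share lay from 0.806% through a median of 0.948% to 1.01% in the control 2-cell libraries and from 2.49% through 2.65% to 2.74% in the control 4-cell libraries. At the control 8-cell stage it was 1.91% to 2.23%, at the morula stage 2.40% to 3.00%, and at the blastocyst stage 1.33% to 2.05%. No control 2-cell library reached the lowest library of any other control stage.

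**Figure D1:**
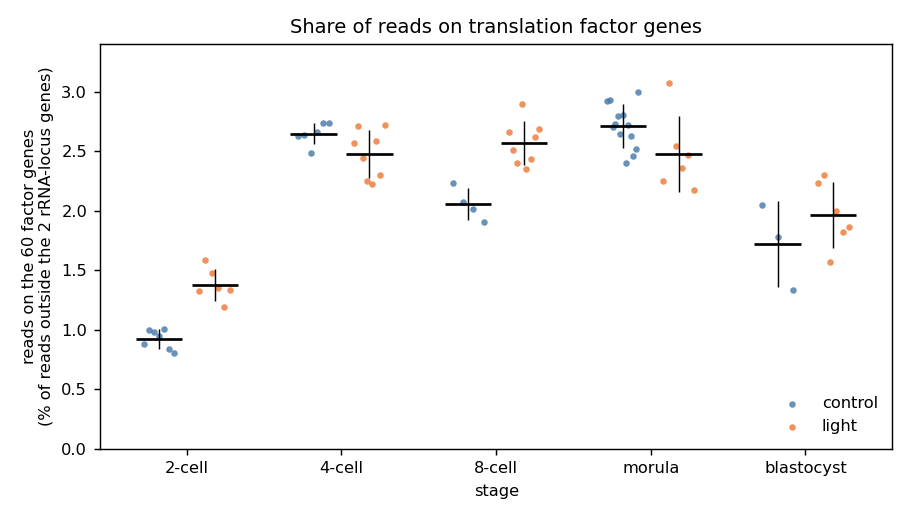
Share of reads on the 60 factor genes (y axis, percent of reads outside the pair of rRNA-locus genes) by stage (x axis) in control (blue) and light (orange) libraries. Points are libraries, the horizontal line is the group mean and the vertical line its SD. The light and control points do not overlap at the 2-cell stage (1.19% to 1.58% against 0.806% to 1.01%) or at the 8-cell stage (2.35% to 2.89% against 1.91% to 2.23%).

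Each gene was tested with limma on log2(CPM + 1), with p-values adjusted over all genes tested, and was called at an adjusted p under 0.05 and a change of at least 2-fold. A fold change on this scale understates the change of low genes. From the control 2-cell to the control 4-cell stage 38 of 58 factor genes tested rose and 5 fell, and 15 were not called. Among all 17247 genes 17.7% rose and 30.2% fell, or 47.9% in either direction. The median log2 fold change was 1.79 over the factor genes and -0.50 over all genes. The step sets 2-cell libraries against 4-cell libraries. The maternal RNA list fell with it, from 1846 to 4278 CPM down to 94.2 to 242, summed over its 6 genes. By median Gdf9, Bmp15, Zp2, Oosp1 and Nlrp5 fell, and Zp3 did not (50.2 and 64.4). The part of the maternal RNA in the result was not tested.

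The elongation factors took part as a group: all 5 eEF1 genes tested rose. Eef1a1, which encodes the eEF1A that delivers aminoacyl-tRNA, ranged from 183 through a median of 275 to 333 CPM in the control 2-cell libraries. In the control 4-cell libraries it ranged from 1226 through a median of 1904 to 2172, with no overlap (log2 fold change 2.76 ± 0.21 (SE), adjusted p = 2.56e-09). Eef1g, a subunit of the complex that reloads eEF1A with GTP, went from 2.07 through a median of 14.0 to 52.9 to a range of 154 to 819.7 (log2 fold change 4.79 ± 0.56 (SE), adjusted p = 6.47e-07). Eef2, the translocase, ranged from 87.9 through a median of 204 to 357 at the 2-cell stage and from 1199 through a median of 2069 to 2529 at the 4-cell stage (log2 fold change 3.25 ± 0.29 (SE), adjusted p = 1.58e-08). Its lowest 4-cell library was thus far above its highest 2-cell library. The largest rise of all was that of Eef1akmt1, a lysine methyltransferase of eEF1A, whose 2-cell range was 0 to 17.3 and 4-cell range 87.6 to 214 (log2 fold change 4.82 ± 0.65 (SE), adjusted p = 4.2e-06).

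Of the 14 eIF3 genes, 11 rose and none fell, with a median log2 fold change of 2.64. Eif3g, whose product is an RNA-binding subunit, ranged from 7.49 through a median of 20.5 to 72.6 at the control 2-cell stage. At the control 4-cell stage it ranged from 368 through a median of 562 to 787 (log2 fold change 4.40 ± 0.49 (SE), adjusted p = 3.67e-07). Eif3d, which encodes a subunit able to bind the cap of some mRNAs, ranged from 0 through a median of 12.6 to 30.1 and then from 162 through a median of 226 to 306 (log2 fold change 4.38 ± 0.61 (SE), adjusted p = 5.64e-06). The 2-cell and 4-cell libraries of both genes were fully apart. The 3 eIF3 genes that were not called were Eif3f (0.72), Eif3j1 (0.15) and Eif3j2 (0.82); Eif3j1 and Eif3j2 are near-identical copies whose reads may have been split by the counting.

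The other roles also rose in part: 3 of 3 eIF4A genes, 3 of 4 eIF2 genes, 3 of 5 eIF2B genes and 3 of 5 eIF1 and eIF1A genes were called higher. Eif2s2, the beta subunit of eIF2, had the steepest rise among the eIF2 genes, from 139.8 to 256 to 677 to 2686 CPM (log2 fold change 3.28 ± 0.29 (SE), adjusted p = 1.58e-08). Eif2b3 rose furthest among the eIF2B genes (3.65 ± 0.53), and Eif4h, a cofactor of the helicase, furthest in its group (3.65 ± 0.38). By contrast Eif1, which guards start codon choice and was already the most abundant of its group, had a log2 fold change of -0.08 ± 0.22 (adjusted p = 0.799). Among the scaffolds, Eif4g1 (0.86, adjusted p = 0.00729) and Eif4g2 (-0.01, adjusted p = 0.961) were not called.

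The 5 genes that fell over this step stand for a different set of functions. Eif4e1b encodes an eIF4E-like cap-binding protein known from the oocyte, and ranged from 230.2 through a median of 309 to 682 CPM in control 2-cell libraries. In control 4-cell libraries it ranged from 0.885 through a median of 8.08 to 8.41 (log2 fold change -5.82 ± 0.47 (SE), adjusted p = 4.8e-09). Eif4e3, another eIF4E relative, went from 127 through a median of 244 to 347 to a range of 0.621 to 2.66 (log2 fold change -6.57 ± 0.46 (SE), adjusted p = 9.04e-10), and values this low are a few reads each, so the size of its fold change depends on the pseudocount. Eif4enif1 encodes 4E-T, which binds eIF4E and keeps mRNA in a silent state; it fell from 446 to 581 to 39.8 to 111 (log2 fold change -2.79 ± 0.31 (SE), adjusted p = 2.88e-07). Eef2k, the kinase that inactivates eEF2, ranged from 85.3 through a median of 191 to 333 before and from 0 through a median of 1.40 to 29.5 after (log2 fold change -5.61 ± 0.68 (SE), adjusted p = 1.12e-06). The fifth, Eif5a2, is the minor gene for eIF5A and fell from 15.3 to 62.8 to 0 to 17.7 (log2 fold change -3.32 ± 0.71 (SE), adjusted p = 0.00063). In all but Eif5a2 the groups did not overlap.

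While these fell, Eif4e itself rose, so the cap-binding genes changed rank. Per kilobase of exon, the scale used here to compare genes, Eif4e1b led at the control 2-cell stage with a mean of 182 CPM, followed by Eif4e3 (95.0), Eif4e (50.02) and Eif4e2 (3.82). The length is that of all annotated exons of a gene merged, 6008 bases for Eif4e and 2515 for Eif4e3. Without the length term Eif4e had a higher median than Eif4e3 at that stage (268 and 244 CPM). At the control 4-cell stage Eif4e led with 299, then came Eif4e2 (21.8), Eif4e1b (2.91) and Eif4e3 (0.612). Eif4e ranged from 244 through a median of 268 to 386 CPM in control 2-cell libraries and from 697 through a median of 1625 to 2800.3 in control 4-cell libraries (log2 fold change 2.46 ± 0.28 (SE), adjusted p = 3.81e-07). The 4-cell libraries differ among themselves by more than those of the 2-cell stage, and still every one of them lies above every 2-cell library.

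**Figure D2:**
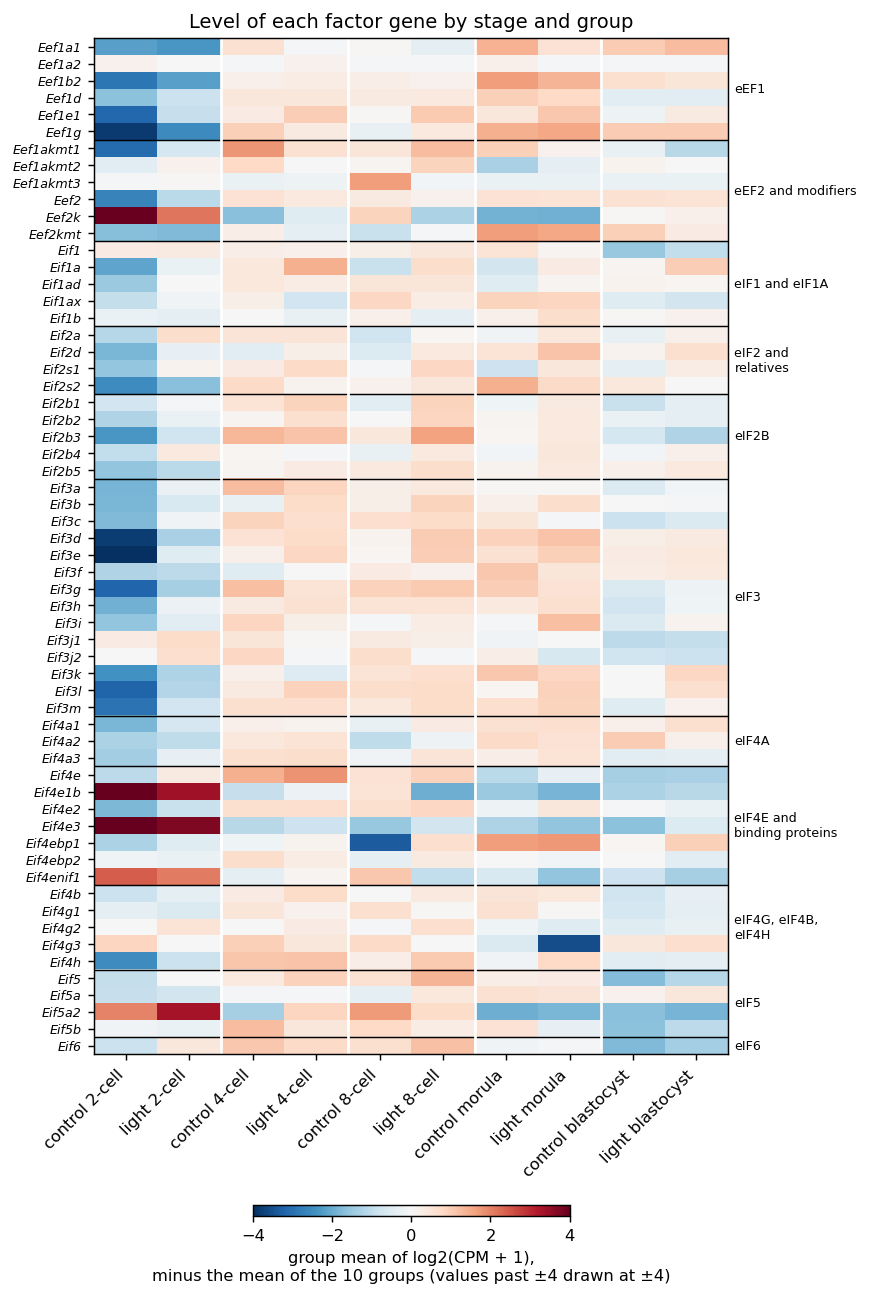
Mean level of each of the 60 factor genes (rows, grouped by role) in the 10 groups (columns), as log2(CPM + 1) minus the mean of the groups; red is above and blue below that mean. Most eIF3 and elongation factor rows are blue in the control 2-cell column and paler in the light 2-cell column, but Eef1a1 is not paler under light. Eif4e1b, Eif4e3, Eif4enif1, Eif5a2 and Eef2k are red in the control 2-cell column.

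Few factor genes moved from the control 4-cell to the control 8-cell stage: 1 of 58 was called, lower, against 1.86% of all 13639 genes tested (1.26% higher and 0.601% lower). That gene was Eif4ebp1, which encodes 4E-BP1, a repressor that holds eIF4E until it is phosphorylated. It ranged from 49.6 through a median of 105 to 162 CPM at the control 4-cell stage and had 2.20, 6.74, 19.3 and 24.0 in the control 8-cell libraries (log2 fold change -3.16 ± 0.69 (SE), adjusted p = 0.0164). All 8-cell values lay below all 4-cell values. The call was lost when control 4-cell library 4 or 5 was left out, and the count was 2 without control 4-cell library 1 or 2 or control 8-cell library 3. By the deposited size factors 17 of 58 factor genes were lower over this step, beside 693 lower and 153 higher of all 13423 genes. The median of all genes was then -0.56 rather than -0.01.

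From the control 8-cell to the control morula stage 7 of 58 rose and 3 fell, against 6.22% and 8.96% of all 15710 genes, or 15.2% in either direction. The elongation factor genes Eef1a1, Eef1b2 and Eef1g rose, as did Eif2s2, Eif4a2, Eef2kmt and Eif4ebp1. Eif4ebp1 went from the low 8-cell values to a range of 150.2 to 737 with a median of 335 (log2 fold change 5.01 ± 0.45 (SE), adjusted p = 3.66e-08). Eef1g had 117, 168, 214 and 223 CPM at the 8-cell stage and ranged from 373 through a median of 630.1 to 757 in morulae (log2 fold change 1.73 ± 0.24 (SE), adjusted p = 1.73e-05). Eef1a1 had 1008, 1093, 1422 and 1543 and then ranged from 2283 through a median of 3084 to 4071 (log2 fold change 1.32 ± 0.14 (SE), adjusted p = 3.76e-07). For all 3 genes the stages were apart. Eif4a2, another eIF4A gene, had 43.1, 62.0, 105 and 289 at the 8-cell stage and ranged from 153 through a median of 344 to 528 in morulae (log2 fold change 1.76 ± 0.37 (SE), adjusted p = 0.00172), and Eef2kmt, a methyltransferase of eEF2, had 5.64, 5.94, 13.5 and 15.4 and then ranged from 10.0 through a median of 63.2 to 159.9 (log2 fold change 2.57 ± 0.65 (SE), adjusted p = 0.00756). In both the stages overlapped.

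The genes that fell over the same step were Eif4e, Eif4enif1 and Eif5a2. Eif4e had 780.5, 937, 967 and 1008 CPM in the control 8-cell libraries and ranged from 124 through a median of 297 to 941 in control morulae (log2 fold change -1.69 ± 0.41 (SE), adjusted p = 0.00562). The highest morula library overlapped the 8-cell values. Eif4enif1 (log2 fold change -1.67 ± 0.54 (SE), adjusted p = 0.034) and Eif5a2 (log2 fold change -3.65 ± 1.09 (SE), adjusted p = 0.0235) each lost the call when control 8-cell library 2 or 4 was left out, Eif4enif1 also without library 1. The control 8-cell libraries held more summed RNA of the 2-cell list (135 to 499.8 CPM over its 6 genes, against 0.877 to 76.7 in morulae). By median this was mainly Tdpoz4 (191) and Zfp352 (98.0), and Zscan4c and Zscan4d were at 0. The ratio of the reads on the pair of rRNA-locus genes was 2.01 to 2.34 in control 8-cell libraries and 2.34 to 4.14 in control morulae. The part of the list and of the ratio in these changes was not tested.

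Blastocysts had less of many factor genes than morulae. In controls 13 of 58 fell and none rose, against 5.39% of all 15708 genes that fell and 7.77% that rose, or 13.2% in either direction. The medians were -0.42 over the factor genes and 0.40 over all genes. The genes that fell were 5 eIF3 genes, Eif4b, Eif4g1, Eif4ebp1, Eif1, Eif5, Eif5b, Eif6 and, among the elongation factors, Eef1d. Eif5b, the factor for joining of the large subunit, ranged from 233 through a median of 443 to 529 in control morulae and had 78.3, 83.9 and 92.9 in control blastocysts (log2 fold change -2.23 ± 0.28 (SE), adjusted p = 6.67e-06). Eif1 ranged from 397 through a median of 983 to 1329 and then had 201, 217 and 231 (log2 fold change -2.08 ± 0.28 (SE), adjusted p = 1.2e-05). Eif5, the GTPase activator of eIF2, ranged from 496 through a median of 1306 to 1934 and then had 256, 275 and 340.3 (log2 fold change -1.99 ± 0.33 (SE), adjusted p = 0.000158). For these 3 genes every blastocyst lay below every morula. Eif6 fell from 134 to 859 to 87.6, 152 and 176 with overlap (log2 fold change -1.63 ± 0.39 (SE), adjusted p = 0.0059), and its call was lost without control blastocyst library 3. Without that library the number called was 6 of 58, all lower, beside 1115 of all 15254 genes (525 lower). The control blastocysts differed in makeup, with 868 to 7539 CPM over 6 trophectoderm genes and 377 to 3458 over 6 inner cell mass genes. The ratio of the reads on the pair of rRNA-locus genes was 2.34 to 4.14 in control morulae and 1.42 to 1.45 in control blastocysts. The part of makeup and of that ratio in these falls was not tested.

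Light-exposed 2-cell embryos had more RNA of many factor genes than control 2-cell embryos. Their share of reads on the 60 genes ranged from 1.19% through a median of 1.34% to 1.58%, above every control library. Of 58 genes tested 22 were higher and 3 lower, and 33 were not called. Among all 18090 genes 6.94% were higher and 5.02% lower, or 12% in either direction. The median log2 fold change was 0.97 over the factor genes and 0.05 over all genes, and 47 of the 58 were above 0. This comparison and the step from the control 2-cell to the control 4-cell stage share the control 2-cell libraries, so their directions are not independent.

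Along with these genes the maternal list was lower under light, with summed levels of 525 to 1741 CPM against 1846 to 4278 in controls. All 6 of its genes were read in both groups. Bmp15 had the highest median (1780 in control and 395 in light libraries). By median all but Zp3 (50.2 in control and 53.9 in light libraries) were lower under light. The 2-cell list overlapped (110 to 1244 against 269 to 512), as did the trophectoderm list (60.1 to 215 against 40.8 to 113). The ratio of the reads on the pair of rRNA-locus genes, a property of the libraries, was 1.58 to 1.77 in light and 2.34 to 4.03 in control 2-cell libraries. Exposure, the passing of the maternal RNA and whatever set that ratio cannot be told apart at this stage.

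The eIF3 genes made up the largest block. All 14 had a log2 fold change above 0 and 8 were called, with a median of 1.61. Eif3e, whose product is a subunit of the outer part of the complex, ranged from 1.06 through a median of 11.5 to 40.4 CPM in control 2-cell libraries. In light 2-cell libraries it ranged from 73.3 through a median of 112 to 219.7, with every light library above every control (log2 fold change 3.54 ± 0.59 (SE), adjusted p = 0.000176). Eif3d ranged from 0 through a median of 12.6 to 30.1 in controls and from 24.9 through a median of 57.5 to 143 under light (log2 fold change 2.52 ± 0.63 (SE), adjusted p = 0.00746). Here the lowest light library lay below the highest control. Eif3c, a core subunit, did not overlap (244 to 564 against 12.7 to 222; log2 fold change 1.63 ± 0.44 (SE), adjusted p = 0.0128). The other genes called were Eif3m (2.18), Eif3l (2.05), Eif3g (1.87), Eif3h (1.67) and Eif3a (1.58), and those not called were between 0.15 (Eif3f) and 1.21 (Eif3b).

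**Figure D3:**
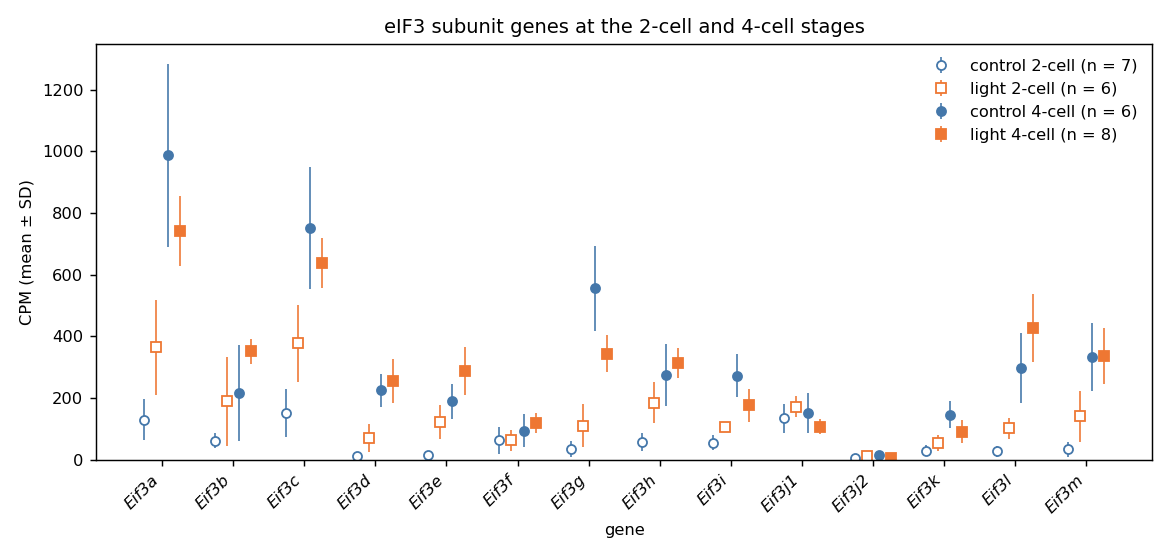
Level of each eIF3 gene (x axis) in CPM (y axis, mean ± SD) in control 2-cell (n = 7), light 2-cell (n = 6), control 4-cell (n = 6) and light 4-cell (n = 8) libraries. For most genes the light 2-cell mean lies between the control 2-cell mean and the 4-cell means, as for Eif3e (14.5, 122 and 189 in control 2-cell, light 2-cell and control 4-cell libraries).

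In the eIF2 group 3 of 4 genes were higher. Eif2s1, the alpha subunit on which the stress kinases act, ranged from 39.2 through a median of 75.4 to 188 in control and from 159 through a median of 338 to 467 in light 2-cell libraries (log2 fold change 1.70 ± 0.35 (SE), adjusted p = 0.00129). The lowest light library lay below the highest control. Eif2a (1.85) and Eif2d (1.49), which encode alternative carriers of tRNA, were also higher, while Eif2s2 passed the adjusted p but not the 2-fold limit (0.84). Of the eIF2B genes 1 was called, Eif2b4 (1.37). Eif1a, for eIF1A, went from 15.1 to 88.9 to 76.9 to 147 (log2 fold change 1.87 ± 0.41 (SE), adjusted p = 0.00266), and Eif1ad, a gene with an eIF1A-like domain, was higher by 1.48 on the log2 scale. Eif1a has a near-identical copy, Eif1ax, which was not called (0.81), and reads shared between them could have gone to either.

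Among the cap-binding genes light and control differed in both directions. Eif4e ranged from 244 through a median of 268 to 386 in control and from 515 through a median of 826 to 1015 in light 2-cell libraries, with no overlap (log2 fold change 1.39 ± 0.22 (SE), adjusted p = 7.79e-05). Eif4e3 was lower, ranging from 127 through a median of 244 to 347 in control and from 50.6 through a median of 68.8 to 90.1 under light, again with no overlap (log2 fold change -1.73 ± 0.30 (SE), adjusted p = 0.000197). Eif4e1b ranged from 230.2 through a median of 309 to 682 and from 94.2 through a median of 109 to 255 (log2 fold change -1.49 ± 0.30 (SE), adjusted p = 0.00119), where the highest light library passed the lowest control. Per kilobase Eif4e thus had a mean of 133 in light 2-cell libraries, above Eif4e1b (63.9) and Eif4e3 (27.5), whereas in control 2-cell libraries it stood below both. Its order against Eif4e3 in controls rests on the exon lengths used, since by median CPM Eif4e was above Eif4e3 (268 and 244). Eif4enif1 was not called (-0.33 ± 0.21, adjusted p = 0.326). The helicase genes Eif4a1 (log2 fold change 1.17 ± 0.25 (SE), adjusted p = 0.00179) and Eif4a3 (1.05) were higher, the second of which also serves in the exon junction complex, and Eif4a2 was not called (0.26).

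**Figure D4:**
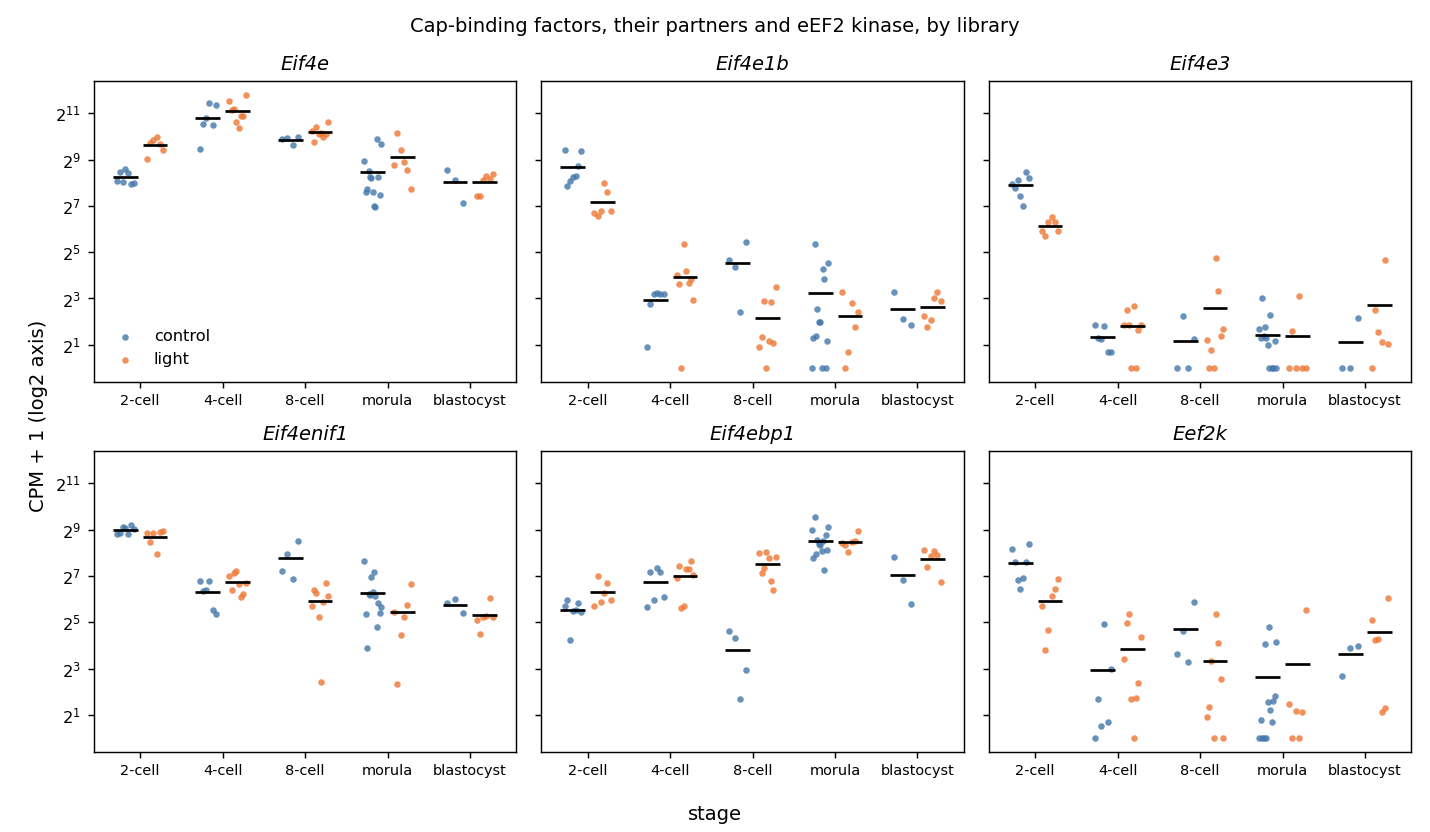
Levels of Eif4e, Eif4e1b, Eif4e3, Eif4enif1, Eif4ebp1 and Eef2k (panels) in CPM + 1 (y axis, log2 scale) by stage (x axis), in control (blue) and light (orange) libraries; points are libraries and lines are group means. At the 2-cell stage Eif4e is higher and Eif4e1b, Eif4e3 and Eef2k are lower under light, and at the 8-cell stage the control libraries stand at 2.20 to 24.0 for Eif4ebp1 while the light libraries stand at 82.8 to 259.

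In the elongation group, Eef2 was higher in every light 2-cell library than in every control (from 87.9 through a median of 204 to 357 in control, from 509 through a median of 588 to 880.4 under light; log2 fold change 1.62 ± 0.27 (SE), adjusted p = 0.000164). Eef2k, its inhibitory kinase, was lower, ranging from 85.3 through a median of 191 to 333 in control and from 12.9 through a median of 60.2 to 117 under light, with overlap (log2 fold change -1.81 ± 0.43 (SE), adjusted p = 0.00468). Eef1akmt1 was higher (from 0 through a median of 5.19 to 17.3 against from 6.01 through a median of 29.6 to 78.1; log2 fold change 2.38 ± 0.77 (SE), adjusted p = 0.0376), a call that was lost in 7 of the 13 fits with a library left out. Of the eEF1 genes only Eef1e1, which belongs to the aminoacyl-tRNA synthetase complex, was called (2.22). Eef1a1 ranged 183 to 333 in control and 133 to 388 in light libraries (log2 fold change -0.15 ± 0.26 (SE), adjusted p = 0.761), in contrast with its rise over the control step to the 4-cell stage. The calls for Eef2k, Eif4e1b and Eif4e3 were lost in a single fit over all 67 libraries (limma, adjusted p = 0.184, 0.162 and 0.0653).

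Of the last roles, Eif6 was higher under light (from 119 through a median of 296 to 415 in control, from 336 through a median of 663 to 976 under light; log2 fold change 1.34 ± 0.28 (SE), adjusted p = 0.00167), and Eif4h was higher by 1.68 on the log2 scale. None of the 4 eIF5 genes was called. Eif5 passed the adjusted p with a change just under 2-fold (log2 fold change 0.98 ± 0.23 (SE), adjusted p = 0.00401), and Eif5b was close to its control level (-0.13 ± 0.25, adjusted p = 0.786).

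**Figure D5:**
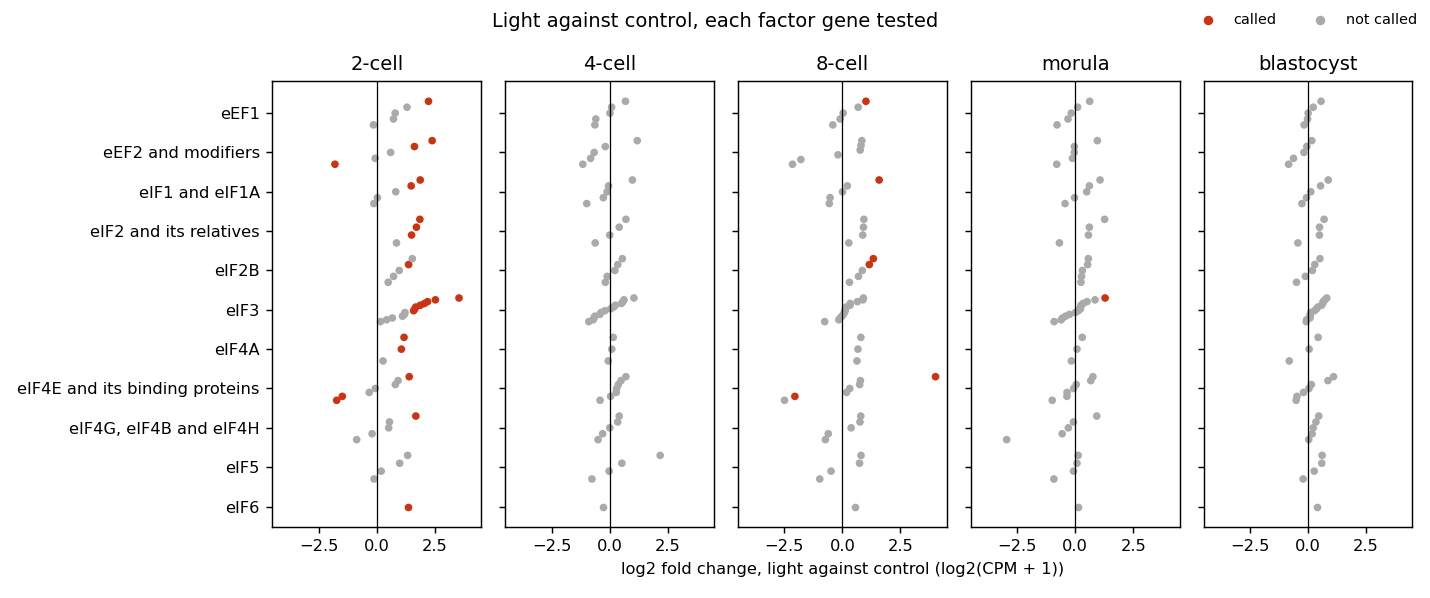
Log2 fold change of light against control (x axis) for each factor gene tested, by role (y axis), at the 5 stages (panels); red points were called. At the 2-cell stage most points lie right of 0 and 25 are red, and at the 4-cell and blastocyst stages none is.

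At the 4-cell stage no factor gene was called between light and control libraries by limma, among 58 tested, where 2.15% of all 15014 genes were (1.69% higher and 0.466% lower). At an unadjusted p under 0.05 there were 13, and the share of all genes at that limit was not taken. Among all 15014 genes edgeR called 152 and DESeq2 called 758. Among the factor genes edgeR called 0 and DESeq2 called 1, Eef1akmt1. The share of reads was 2.22% to 2.72% under light and 2.49% to 2.74% in controls, and the median log2 fold change over the factor genes was 0.01. The smallest p belonged to Eef1a1, with from 1226 through a median of 1904 to 2172 CPM in control and from 848 through a median of 1147 to 1473 in light libraries (log2 fold change -0.64 ± 0.18 (SE), adjusted p = 0.0605). Next was Eef1akmt1, with from 87.6 through a median of 139 to 214 and from 29.1 through a median of 60.9 to 102 (log2 fold change -1.16 ± 0.35 (SE), adjusted p = 0.0788). In both, the groups overlapped. The count depended on control library 3, and so did that over all genes, which went from 323 of 15014 to 930 of 14832 without it. Of 58 factor genes 4 were then called. Eif3b (1.04 in the full comparison) and Eif1a (0.98) were higher, and Eef1akmt1 and Eif5b (-0.77) were lower. In control 4-cell libraries 1 and 2 the ratio of the rRNA-locus genes was over 4. Without both, 2 of 58 factor genes were called, beside 421 of all 14641 genes. The 2-cell list was 31.0 to 477 CPM in light and 12.6 to 98.3 in control 4-cell libraries, and the primitive endoderm list 237 to 578 and 127 to 409. Of the 2-cell list, Tdpoz4 had medians of 69.2 in light and 27.0 in control libraries. The next highest median was 0.635, that of Zscan4d under light. Of the primitive endoderm list, Gata4 had medians of 344 in light and 68.1 in control libraries. Gata6 (38.8 and 80.8) and Lamb1 (19.7 and 39.3) were lower under light, and the rest of that list was at or near 0.

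The change from the 2-cell to the 4-cell stage was smaller in the light group than in the control group for 13 of 58 factor genes and larger for none, by the interaction term of a fit over the 27 libraries. Among all 20125 genes 2.13% had a lower and 1.94% a higher term, or 4.06% in either direction. The interaction uses the same libraries as the comparisons above. The number was 7 without light 2-cell library 12, 8 without light 2-cell library 10, light 4-cell library 1 or control 4-cell library 5 or 6, and 7 by the deposited size factors. In that order these fits called 471 of 19976, 617 of 19920, 651 of 20018, 602 of 20004, 646 of 20004 and 635 of 20393 genes. Calls in the other direction were added by median ratio scaling (1 beside 8 lower), edgeR (2 beside 10 lower) and DESeq2 (3 beside 13 lower). Over all genes, median ratio scaling called 640 higher and 305 lower of 20127. Of 20125 genes edgeR called 582 higher and 523 lower, and DESeq2 985 and 672. The 13 genes of the main fit were 7 eIF3 genes, Eef1akmt1, Eef2, Eif2s2, Eif4a1, Eif4h and Eif6. Eif3e, for one, had means of 14.5 and 189 CPM in control 2-cell and 4-cell libraries and of 122 and 289 in light ones (interaction -2.92 ± 0.67, adjusted p = 0.0105). For Eef1akmt1 these means were 6.27, 138, 31.8 and 62.4 (-3.54 ± 0.81, adjusted p = 0.0105). In Eif3e the 4-cell light mean was above the control mean, and in Eef1akmt1 below it. The 5 genes that fell in controls were not called by limma on CPM, with terms of 3.00 for Eef2k, 2.02 for Eif4e3, 2.19 for Eif4e1b, 0.85 for Eif5a2 and 0.82 for Eif4enif1. Of these, median ratio scaling called Eif4e3, edgeR Eif4e3 and Eif4e1b, and DESeq2 all of Eif4e3, Eif4e1b and Eif4enif1, each as higher.

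At the 8-cell stage the factor genes again took a larger share of reads under light, 2.35% to 2.89% against 1.91% to 2.23%. Of 59 genes tested 5 were higher and 1 lower. These 10.2% are near the 8.49% of all 14728 genes that were called (4.83% higher and 3.66% lower). Eif4ebp1 differed most of all. It had 2.20, 6.74, 19.3 and 24.0 CPM in the 4 control libraries and ranged from 82.8 through a median of 192 to 259 in the 8 light libraries (log2 fold change 4.01 ± 0.50 (SE), adjusted p = 3.33e-05). The groups were far apart, and the control values were also the low ones beside the control 4-cell and control morula libraries. Its relative Eif4ebp2 had a log2 fold change of 0.74 ± 0.60 (adjusted p = 0.474).

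Eif4enif1 was the gene that was lower, with 117, 148, 247 and 367 in control and from 4.36 through a median of 63.4 to 103 in light 8-cell libraries (log2 fold change -2.05 ± 0.58 (SE), adjusted p = 0.0294); without control library 2 or 4 it was not called. Eif1a had 30.9, 49.3, 114 and 159 in controls and ranged from 119.9 through a median of 233 to 359.6 under light (log2 fold change 1.58 ± 0.38 (SE), adjusted p = 0.0103). A pair of eIF2B genes, which encode the exchange factor of eIF2, were higher. Eif2b1 had 117, 121, 128 and 208 in controls and ranged from 173 through a median of 389 to 511 under light (log2 fold change 1.33 ± 0.28 (SE), adjusted p = 0.00388), while Eif2b3 (1.16 ± 0.34) was called in 7 of the 12 fits with a library left out. Eef1e1 (1.01) was just past 2-fold. The genes Eif5 (0.74), Eif5a (0.80) and Eif4g2 (0.75) were higher and Eif4g1 lower (-0.61) at adjusted p-values of 0.0018 to 0.0221, with no overlap and less than 2-fold. In the same libraries the 2-cell list was 135 to 499.8 CPM in control against 2.74 to 144 under light, the maternal list 154 to 287 against 52.2 to 153, the inner cell mass list 240.3 to 332 (median 289) against 162 to 1308 (median 973), and the rRNA-locus ratio 2.01 to 2.34 against 1.52 to 1.71. Of the 2-cell list, the control and light medians were 191 and 61.8 for Tdpoz4 and 98.0 and 0 for Zfp352. Those of Zscan4c and Zscan4d were at or near 0 in both groups. In the maternal list the medians of Zp3 (33.5 and 38.4) and Oosp1 (0 and 1.44) were not lower under light. In the inner cell mass list those of Tdgf1 (89.7 and 675), Pou5f1 (53.7 and 204) and Esrrb (41.7 and 75.8) were higher under light. Fgf4 was lower (94.5 and 22.6), Nanog differed little (11.0 and 9.66), and Sox2 was at 0 in both groups. The part of these lists and of the ratio in these differences was not tested.

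In morulae 1 of 58 factor genes was called, higher under light, against 1.59% of all 16169 genes (0.847% higher and 0.742% lower). This was Eif3i, a subunit of eIF3, which ranged from 86.7 through a median of 132 to 367 CPM in 13 control and from 255 through a median of 334 to 446 in 6 light libraries, with overlap (log2 fold change 1.29 ± 0.29 (SE), adjusted p = 0.0197). The call was lost without light library 3, when Eif5b was called as lower instead. On the deposited scale Eif3i was likewise not called (1.09, adjusted p = 0.135) and Eif5b was, as lower, and the median over the factor genes was -0.12 rather than 0.08, with 25 rather than 32 genes above 0. Eef1a1 was lower by less than 2-fold, and its groups were apart: from 2283 through a median of 3084 to 4071 in control and from 1462 through a median of 1773 to 2270.3 under light (log2 fold change -0.78 ± 0.12 (SE), adjusted p = 0.000471). Eif2s2 was lower too (log2 fold change -0.68 ± 0.15 (SE), adjusted p = 0.0199), as were Eif5b (-0.92, adjusted p = 0.0275) and Eif4g1 (-0.56, adjusted p = 0.0351). Eif4g3 had the largest difference in size, with means of 51.2 in control and 5.29 under light, but missed the threshold (log2 fold change -2.95 ± 0.82 (SE), adjusted p = 0.0562); it was called with a pseudocount of 0.1, with a single fit over all libraries and by DESeq2. With single libraries left out the number called was 2 or 3 without light library 1 or control library 9, 10, 14 or 20, when Eif4g3, Eif2s1 (1.27 here) or both were added. The rRNA-locus ratio was 2.34 to 4.14 in control and 1.49 to 1.67 in light morulae, and the primitive endoderm list was 332 to 818 and 155 to 519 CPM; their part in these differences was not tested.

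Among blastocysts 0 of 58 factor genes were called by limma, against 1.9% of all 14110 genes (1.03% higher and 0.865% lower). There were 3 at an unadjusted p under 0.05, and the share of all genes at that limit was not taken. Both edgeR and DESeq2 called 0 factor genes, beside 164 and 486 of all 14110 genes. Eif1a had 120.1, 135 and 189 CPM in the 3 control and from 207 through a median of 268 to 323 in the 6 light libraries (log2 fold change 0.87 ± 0.32 (SE), adjusted p = 0.182). Eif4a2 had 333, 374 and 462 and from 153 through a median of 229.8 to 321 (log2 fold change -0.81 ± 0.32 (SE), adjusted p = 0.233). In both the groups did not overlap. The trophectoderm list was 9048 to 12659 CPM in light against 868 to 7539 in control blastocysts, the inner cell mass list 307 to 546 against 377 to 3458, and the primitive endoderm list 186 to 499.7 against 387 to 1414. Their part in the differences was not tested.

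Pairs of closely related factor genes kept different schedules. Of the eIF5A genes, Eif5a was present throughout, with means per kilobase of 435, 793, 629, 1266 and 904 CPM from the control 2-cell stage to the blastocyst, while Eif5a2 had 8.20, 1.11, 8.03, 1.63 and 1.64. Eif4a1 was above Eif4a2 at each control stage (62.6 against 17.1 at the 2-cell and 248 against 73.0 at the blastocyst stage). Eif4ebp1 ranked below Eif4ebp2 per kilobase at the control 8-cell stage only (5.94 against 16.7), and reached 168 against 17.2 in control morulae. Eef1a2, the eEF1A gene of muscle and neurons, was at 0 in nearly all libraries and was too low to be tested, and the methyltransferase gene Eef1akmt3 could be tested at the 8-cell stage alone. Several of these genes, such as Eef1a1, Eif4a1 and Eif5a, have processed pseudogenes, and reads may have been shared with them.

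The rest of the translation machinery was looked at through 40 genes for kinases, poly(A)-binding proteins, release factors and regulators, of which 39 were in the table and 37 or 38 tested. In light against control 2-cell embryos 8 of 38 were higher and 2 lower, where 6.94% and 5.02% of all genes were. The release factor genes Etf1 (1.56) and Gspt1 (2.16) and the ribosome recycling factor Abce1 (2.09) were among the higher ones, and the helicase Ddx3x (-1.12) and Paip2b (-1.22), an inhibitor of poly(A)-binding protein, were the lower ones. From the control 2-cell to the control 4-cell stage 12 of 38 rose and 9 fell, where 17.7% and 30.2% of all genes did. Abce1 (2.96) and Larp1 (2.23), which binds mRNAs of the translation machinery, rose, and Paip1 (-4.47) and the oocyte factor Cpeb1 (-3.59) fell. At the later stages 0 to 2 were called in either direction between light and control.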

How the data were processed

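The 67 SMART-seq2 libraries were mapped to their groups by the GEO labels. The deposited table holds signal values, which the authors obtained from gene-level reads through 1 scaling factor for each library; no term for gene length is in them, although RPKM is described in the methods. The submitters' processing notes name HISAT2, HTSeq 0.9.1 and mm9, and whether reads were counted by strand is not given in the sources used here. With a tolerance of 0.01, whole reads were recovered from 99.97% of values or more in any library; some value was not whole in 11 genes. The reads were scaled to CPM, per 1000000 reads outside CT010467.1 and Gm42418, because the authors' factors follow this pair and they held 54.0% to 89.3% of reads.

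Genes above 1 CPM in at least 3 of the libraries compared were tested on log2(CPM + 1) in limma 3.58.1 under R 4.3.3, using lmFit and a trended eBayes, with Benjamini-Hochberg adjustment over all genes, after a test on simulated data. A gene was called at an adjusted p under 0.05 and at least 2-fold. Light was compared with control at each stage, each control stage with the one before, and the change from the 2-cell to the 4-cell stage between the groups. The alternatives were the deposited scale, median ratio scaling, a pseudocount of 0.1, no filter, 1 fit over all libraries, the embryo number as a replicate block and each library left out; added after seeing the data were the 4-cell libraries without control embryos 1 and 2, the block for the interaction, and count tests of the recovered reads by edgeR 4.0.16 and by DESeq2 1.42.0; edgeR called 2113 of 18090 genes at the 2-cell stage and 152 to 897 at later stages of light against control.

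The factor genes, the lists of other translation genes and of markers, and the tests were chosen with earlier results of these data known. Named with full values were the called genes with the largest changes, up to 3 each way for light and 4 for stage steps with a mean of at least 10 CPM in a group, the 2 smallest p-values where fewer than 2 were called, and fixed genes for each role and pair of related genes; further genes were named after their values were seen. Exon lengths came from GENCODE M21 and promoters from RefSeq (GRCm38.p6). The authors' symbols match GENCODE M21 rather than mm9, so no gene coordinate is taken from the deposited table. Intervals for single counts are not given, and 3 reads correspond to 1.05 to 9.43 CPM by library.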

Additional observations from a re-analysis of the deposited data

Results flagged for a closer look

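In 4 of 46 sets of values of a gene in a group of 4 to 10 libraries, 1 library lay far from the others; chance gives about 1 in 20. Eif2b1 was 208 CPM in control 8-cell library 2, against 117 to 128 in the other control 8-cell libraries. Eif4e1b was 0.885 CPM in control 4-cell library 1, against 5.82 to 8.41. Eef2k was 29.5 CPM in control 4-cell library 4, against 0 to 6.84. Eef1g was 52.9 CPM in control 2-cell library 8, against 2.07 to 23.4.

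For 13 genes the change from the 2-cell to the 4-cell stage differed between light and control by the interaction term of limma, with adjusted p-values from 0.00224 to 0.0448. The terms, on the log2 scale and all below 0, were -2.92 for Eif3e, -2.55 for Eif3g, -2.36 for Eif3d, -2.14 for Eif3m, -1.95 for Eif3a, -1.84 for Eif3c and -1.74 for Eif3i among the eIF3 genes. For elongation they were -3.54 for Eef1akmt1 and -1.81 for Eef2. The remaining terms were -1.67 for Eif4h, -1.65 for Eif6, -1.47 for Eif2s2 and -1.23 for Eif4a1. The libraries are those of the 2-cell and 4-cell comparisons above, so these terms are no independent result.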

How the results depend on the processing

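The counts of factor genes called at the 2-cell stage (20 to 27 with a library left out), at the 8-cell stage (4 to 8) and over the control step to the 4-cell stage (41 to 46) stayed within 1.5 times under every alternative run. The directions at the 8-cell stage were less stable. There 5 higher and 1 lower became 3 and 3 in a single fit over all libraries and 3 and 2 by DESeq2. Under the deposited scale the count was 1 for light morulae, with Eif5b called as lower and Eif3i not called, 1 for light blastocysts, 17 for the control 8-cell against the 4-cell stage and 7 for the interaction. Over all genes this scale called 178 of 15215, 716 of 12741, 846 of 13423 and 635 of 20393 in the same order. This scale moved the median of all genes from -0.04 to -0.64 at the blastocyst and from -0.01 to -0.56 over the 8-cell step, with the share of higher calls at the blastocyst going from 146 of 268 to 51 of 716. A pseudocount of 0.1 gave 2 in morulae, a single fit gave 3 in morulae and 4 over the 8-cell step, and DESeq2 gave 1 at the 4-cell stage, 3 in morulae and 2 over the 8-cell step. Without control 4-cell libraries 1 and 2 the 4-cell count was 2. With single libraries left out the counts ranged between 0 and 4 for 4-cell embryos, between 1 and 3 for morulae (1 lower gene without light library 3), 0 to 0 in blastocysts, 0 to 2 over the 8-cell step, 8 to 12 over the morula step, 6 to 15 over the blastocyst step and 7 to 15 for the interaction. The causes were not tested beyond the smaller number of libraries. For embryo numbers shared between groups, correlations of deviations within a number lay between -0.07 and 0.06. Some libraries were closest to their own number and others were not, and whether the numbers pair the libraries was not tested. With the number as a replicate block, in fewer libraries, 21 factor genes were called for 2-cell embryos, beside 1366 of all 18090 genes. Over the 8-cell step 0 were, beside 83 of all 13639 genes. For 4-cell embryos, morulae, the morula and blastocyst steps and the interaction, 0 of all genes were called with the block. The same libraries without the block also gave 0 of all genes, except for the interaction. There the same 12 libraries gave 10 factor genes, beside 732 of all 20125 genes. No paired analysis was possible for light against control at the 8-cell and blastocyst stages and for the control step to the 4-cell stage because their groups share fewer than 2 numbers. A tally by gene was made for the 41 results picked by the size of their change or their p-value. Genes given for their role or named later were not in it unless so picked. Outside the block, 579 fits with a library left out and 280 with another setting kept the side of the threshold. In these 2 kinds of fit 19 and 11 lost the call and 2 and 6 gained one, with no change of direction. With the block 11 kept the side and 16 lost the call.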
